A study of Mus musculus with 72 samples.

Results

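The carbonic anhydrase genes Car1, Car2, Car3, Car5a, Car8 and Car14, were followed in mouse liver and in the suprachiasmatic nucleus (SCN), the hypothalamic clock nucleus, on 2 diets. They were taken as the rows with these 6 symbols in the deposited gene count tables. They are 6 of 24091 genes in all: the liver table held all 6 among 22823 genes, and the SCN table held 4, Car2, Car3, Car8 and Car14, among 15759. The set was chosen because Car2 stands among the clearest diet differences in the liver, so the members' liver diet values are given as a description and carry no test. Tests are given for the SCN, for time of day and for sex, which the rule of choice did not use. Earlier results of these data were known when the members were chosen.

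The mice were C57BL/6 animals aged 8 to 12 weeks with no allele or transgene named. For 11 days they ate freely either a diet without methionine and choline (MCD) or an isocaloric control diet. They lived in light-dark cycles for 10 days and in constant darkness on the last day, when they were killed every 4 h at 6 circadian times from CT0 to CT20. With 3 libraries, labelled as 2 males and 1 female, at each time on each diet, a tissue had 36 libraries and the study 72; the growth protocol names males only, and the sample labels were followed. Liver RNA came from the left lobe and SCN RNA from laser-cut brain sections, so both are mixtures of cell types, in which fewer cells of a type and less RNA per cell cannot be told apart. Nothing says which libraries of the 2 tissues share an animal, and p-values measure the spread between these libraries.

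Carbonic anhydrases catalyse the reversible hydration of carbon dioxide to bicarbonate and a proton. Cytosolic forms serve gas transport and acid-base balance, the mitochondrial form Car5a supplies bicarbonate to carboxylases and to the first step of the urea cycle, and membrane forms such as Car14 act outside the cell. Car8 belongs to the family by sequence but has no catalytic activity; it binds the inositol trisphosphate receptor. Bicarbonate made by these enzymes is a substrate of fatty acid synthesis, gluconeogenesis and urea formation in hepatocytes.

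In the gene annotation Car3 and Car2 are neighbours on chromosome 3, Car1 lies beside them, with the gene model Gm16399 that overlaps it next to Car3, Car14 lies elsewhere on that chromosome, Car8 is on chromosome 4 and Car5a on chromosome 8. Their identifiers in the tables are ENSMUSG00000027556.16 for Car1, ENSMUSG00000027562.13 for Car2, ENSMUSG00000027559.6 for Car3, ENSMUSG00000025317.8 for Car5a, ENSMUSG00000041261.10 for Car8 and ENSMUSG00000038526.15 for Car14. Exons of Car14 overlap Aph1a on the opposite strand and exons of Car5a overlap BC048644 on the opposite strand. On the same strand Car1 overlaps Gm16399 and Car8 overlaps Gm11799, which a strand setting cannot separate. Whether counting used the strand is not stated in the labels, so reads of the opposite-strand pairs may not have been separated. RefSeq promoter sequences (GRCm38.p6, not the build of the counts) were at hand for Car14, the one member whose rhythm passed the test in control liver, and for Car5a, whose rhythm did not pass; both are shown as the 250 bases before the transcription start, on the minus strand at chr3:95904686-95904935 and chr8:121944913-121945162. The capitals mark a TATTTAA element in Car14; the Car5a window does not hold these letters.

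Car14: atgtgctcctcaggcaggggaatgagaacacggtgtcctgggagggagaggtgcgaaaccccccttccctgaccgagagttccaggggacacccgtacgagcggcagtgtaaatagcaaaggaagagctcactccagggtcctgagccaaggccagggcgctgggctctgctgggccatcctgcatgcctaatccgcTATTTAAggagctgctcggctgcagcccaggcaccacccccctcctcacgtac

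Car5a: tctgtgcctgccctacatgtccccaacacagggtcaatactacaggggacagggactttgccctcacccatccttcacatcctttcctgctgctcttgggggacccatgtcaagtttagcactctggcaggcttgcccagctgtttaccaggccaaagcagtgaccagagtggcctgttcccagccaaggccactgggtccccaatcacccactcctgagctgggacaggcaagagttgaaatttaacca

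Both windows were searched on both strands for the E-box CACGTG, the ROR half-site AGGTCA and the D-box TTANGTAA, motifs of clock factors, and for TATAAA. Neither window held any of the 4, which 6.02%, 14%, 2.06% and 12.4% of 32851 mouse promoter windows of that length hold. TATTTAA, looked for after the sequence was seen, begins 53 bases before the Car14 start and is in 4.18% of the windows. These are matches of letters, and binding was not measured.

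Liver libraries held 52.6 to 86.7 M counts and SCN libraries 23.3 to 79.8 M counts (M, mega). The SCN table held 8 of 8 SCN marker genes, and the liver table held 5 of 6 hepatocyte markers. The liver libraries fell into 2 kinds by the mitochondrial transcript mt-Nd6. The low kind, 8 control and 13 MCD libraries, had 41.6 to 119 CPM, and the high kind, 10 control and 5 MCD libraries, had 414 to 925 CPM. CPM are counts per M counts of the scaled library total, except for these mt-Nd6 values, which use the library total without scaling. The columns of the 2 control males at CT08 share a name in each gene table, so they are called control CT08 a and b here. The exon-bin counts of these males carry replicate numbers. In liver, control CT08 a lay apart from the other controls in 4 of the 6 members, and over all genes this was not counted. The 3 female SCN libraries control CT20 3, MCD CT04 3 and control CT04 3, with 23.3, 25.3 and 27.5 M counts, were among the 4 shallowest and held 247, 216 and 107 genes at 0 that had 10 or more counts in every other SCN library. Values without these libraries are given beside the results they move.

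Between genes, levels were compared as CPM per kilobase of exon. In control liver Car3, a cytosolic form of low activity that is abundant in muscle, fat and rodent liver, stood at 802 ± 266 CPM per kb (SD, n = 18) and made up 88.5% of the sum over the 6 genes. Car5a followed at 58.4 ± 12.5, Car8 at 21.5 ± 4.15, Car14 at 16.2 ± 3.52, Car1 at 4.42 ± 1.65 and Car2 at 3.85 ± 2.05 CPM per kb. Library ranges did not overlap between Car3 and Car5a or between Car14 and Car1, and they did between the other neighbours in this order. On MCD the first 4 places were the same, with Car3 at 605 ± 229 CPM per kb, while Car2 at 9.18 ± 3.57 stood above Car1 at 2.52 ± 1.23, with overlapping ranges. In the SCN the order was different: Car2 led at 32.2 ± 4.6 CPM per kb on control and 28.7 ± 3.86 on MCD, 87.5% and 86.8% of the sum over the 4 genes in that table. Car14, Car3 and Car8 lay at 1.82 ± 0.611, 1.55 ± 0.992 and 1.24 ± 0.322 CPM per kb on control, and their ranges overlapped.

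**Figure D1:**
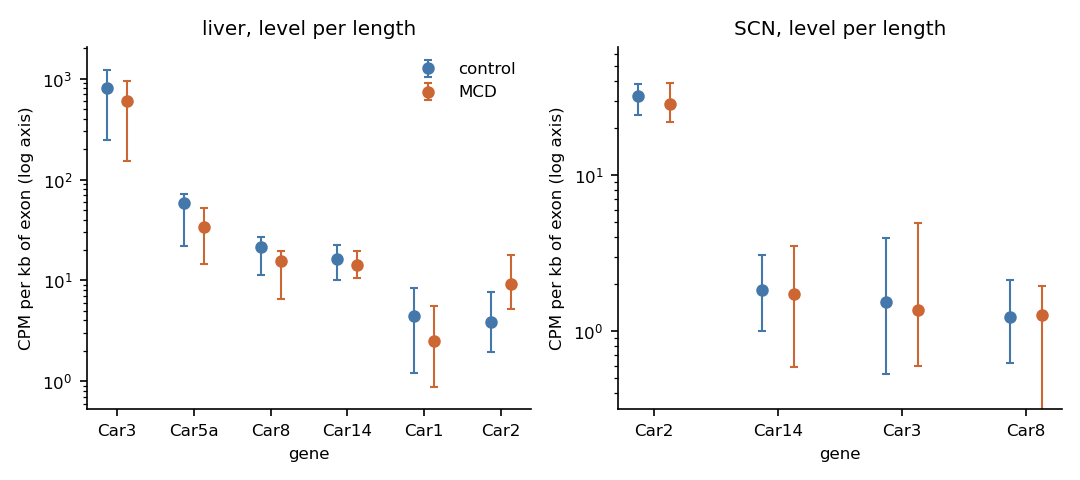
Level of each member per length (CPM per kb of exon, log axis) in liver and SCN; points are means of 18 libraries and bars run from the lowest to the highest library. Car3 leads in liver and Car2 in the SCN; the lower bar of Car8 on MCD in the SCN runs off the axis to 0, the value of library MCD CT04 3.

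The liver diet values of the members went in both directions. As a description, 5 of the 6 were among the genes called in edgeR's quasi-likelihood test, 1 higher and 4 lower on MCD, in a tissue where 46.6% of the 20249 genes tested were called, 25.3% higher and 21.2% lower. Nothing is read from that count, since the genes were chosen on this contrast. Their median log2 difference was -0.43, beside 0.02 for all genes. These values assume TMM scaling. With library totals alone the median of all genes moved by 0.25 on the log2 scale, and the share of higher values among genes called went from 54.4% to 87.3%. The members then had 1.58 for Car2, -0.55 for Car5a, -0.63 for Car1, -0.20 for Car8 and -0.16 for Car3; relative to the median of all genes they were 1.31, -0.82, -0.91, -0.47 and -0.43, beside 1.32, -0.82, -0.91, -0.47 and -0.42 with TMM.

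Car2, the highly active cytosolic enzyme, was the member with more RNA on MCD. In control males it measured 4.71 to 7.61 CPM (median 5.86, n = 12) and in MCD males 12.5 to 20.5 CPM (median 17.1, n = 12). In control females it measured 14.5 to 18.5 CPM (median 15.4, n = 6) and in MCD females 28.0 to 43.2 CPM (median 32.9, n = 6). Within neither sex did the diets overlap, whereas control females and MCD males did. The fitted difference was 1.34 ± 0.08 on the log2 scale (SE), 2.53-fold, and it was 1.15 to 1.5 at the 6 times taken one by one. Library control CT08 a had 7.61 CPM, beside 4.71 to 7.17 in the other control males and 12.5 or more in every MCD male. The difference was 1.19 among the libraries of low mt-Nd6 and 1.55 among those of high mt-Nd6.

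**Figure D2:**
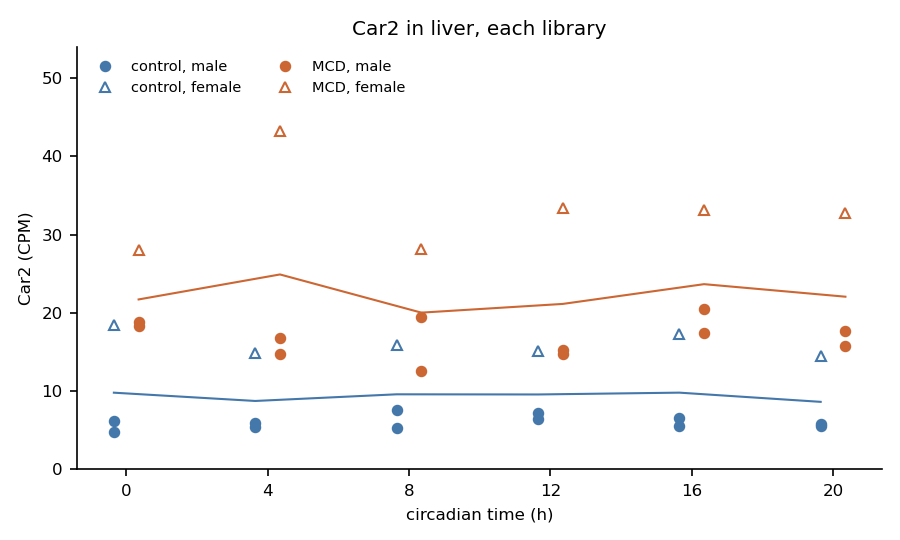
Car2 in every liver library (CPM) against circadian time (h); filled circles are males, open triangles females, and lines join the group means of 3 libraries. MCD libraries lie above the control libraries of the same sex at all 6 times, and females lie above males in all 12 groups.

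Car5a, the mitochondrial form, averaged 78.2 ± 16.7 CPM on control and 45.4 ± 13.96 on MCD (SD, n = 18 each). In females it measured 73.7 to 95.8 CPM on control and 28.3 to 46.6 on MCD, with no overlap. In males it measured 29.1 to 97.0 CPM on control and 19.2 to 69.3 on MCD, and these ranges overlapped. The fitted difference was -0.80 ± 0.14 (SE), and the MCD mean was the lower at 6 of 6 times, with no overlap between the libraries of the diets at 5 of them. The lowest control library was control CT08 a; 15 of 18 MCD libraries lay below the 61.1 CPM that was the lowest of the 17 others. The partner BC048644, which overlaps Car5a exons, averaged 1.66 ± 1.59 CPM on control and 0.460 ± 0.709 on MCD.

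Car1, a cytosolic form best known from red cells, averaged 5.52 ± 2.05 CPM on control and 3.15 ± 1.54 on MCD (SD, n = 18 each), a fitted difference of -0.89 ± 0.19 (SE). The widest gap was at CT12, with 7.91, 7.69 and 3.37 CPM on control and 1.96, 1.5 and 1.39 on MCD. Car8 averaged 82.7 ± 16.0 CPM on control and 60.6 ± 13.03 on MCD, a difference of -0.45 ± 0.11; its female libraries ran from 78.1 to 101 CPM on control and from 49.9 to 72.1 on MCD, with no overlap. For both genes the MCD mean was the lower at 6 of 6 times, and all-library ranges overlapped. The Car8 difference was -0.41 among the libraries of low mt-Nd6 and -0.61 among those of high mt-Nd6.

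Car3 averaged 2297 ± 763 CPM on control and 1732 ± 655 on MCD, a difference of -0.40 ± 0.19 (SE). It was -0.48 without library control CT08 a and -0.48 without MCD CT12 3. Within the kinds of library it was -0.23 for low and -0.85 for high mt-Nd6. Car14 averaged 41.3 ± 8.95 CPM on control and 36.3 ± 6.66 on MCD, the smallest difference of the 6 at -0.17 ± 0.06. Its direction depended on the scaling: with library totals alone it was 0.082. Relative to the median of all genes it was -0.18 with TMM and -0.19 with library totals. Within the low and high mt-Nd6 kinds it was -0.15 and -0.24. Aph1a, whose exons overlap those of Car14 on the opposite strand, averaged 53.9 ± 4.91 CPM on control and 46.1 ± 4.17 on MCD (SD). Its log2 difference was -0.22 ± 0.04 (SE), and the part of Aph1a reads in the Car14 value was not tested.

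**Figure D3:**
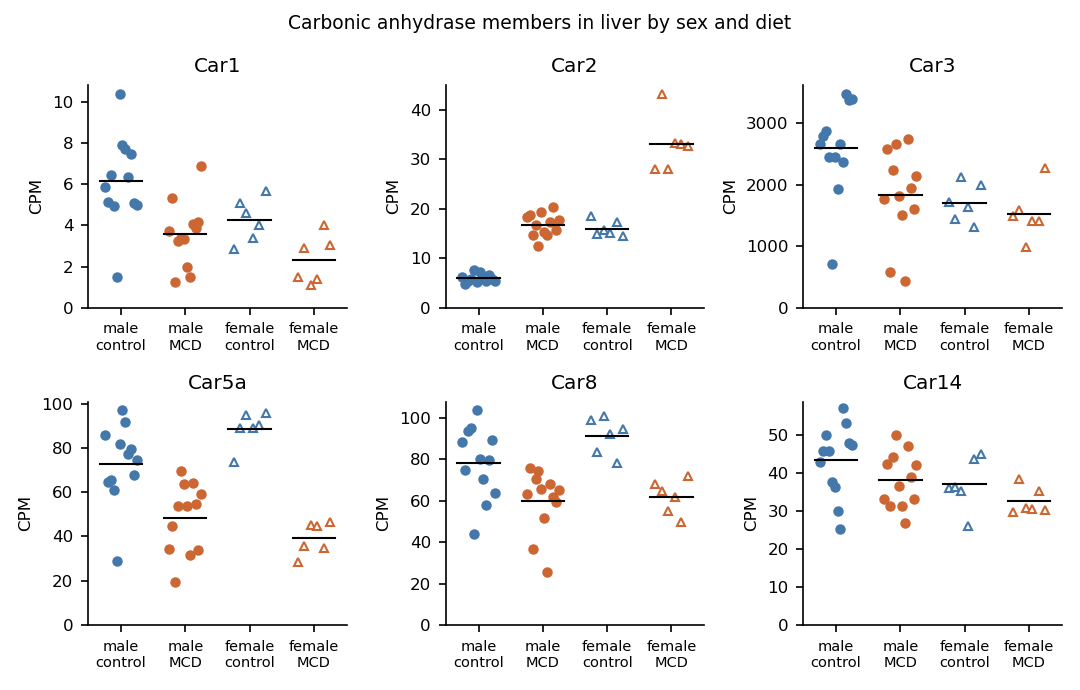
Each liver library's level of the 6 members (CPM), by sex and diet; circles are males, triangles females, lines are means of 12 male or 6 female libraries. Car2 is separated by diet within each sex, Car5a and Car8 are separated by diet in females, and the other panels overlap; the lone low control male in the panels of Car1, Car3, Car5a and Car8 is control CT08 a.

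Car1, Car3, Car5a and Car8 varied together from library to library. Over the 36 liver libraries their log2 CPM correlated pairwise with r between 0.63 and 0.76, while Car2 had r from -0.57 to -0.27 with the other 5 members. These libraries share the diet and sex groups, so the values are a description. In library control CT08 a the same 4 genes were all below the other 17 controls: Car1 had 1.49 CPM against 2.86 to 10.4, Car3 711 against 1310 to 3477, Car5a 29.1 against 61.1 to 97.0, and Car8 43.8 against 57.8 to 104. That library was the deepest of the liver controls, with 86.2 M counts, and of the low mt-Nd6 kind. What share of all liver genes was also lowest in it among the controls was not counted. The MCD libraries CT04 1 and CT12 2 were also low in Car3, at 584 and 436 CPM, and in Car8, at 36.5 and 25.4 CPM.

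By the rule of nearest pattern, Car2 in liver was most like Mgst3 (r = 0.94), Cyp2a22 (0.93) and Ildr2 (0.92), each over 36 libraries. Car5a was most like Gcdh, Pecr and Apoh (0.95, 0.94 and 0.94), and Car3 like Cyp2c50, Lactb and Nadk2 (0.92, 0.92 and 0.90). Car1 was nearest Kmo, Slc22a7 and Sephs2 (each 0.88), and Car8 nearest Ugt3a2, Dsg2 and Mgam (0.91, 0.90 and 0.90). Car14 had no pattern as close: its nearest were Fgd4, Gm7507 and Gm15343 (0.75, 0.73 and 0.72).

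Of the 6 members, Car2 had the largest sex difference in liver. Females had 2.29-fold more Car2 RNA than males in liver (95% interval 2.07 to 2.53), a log2 difference of 1.20 ± 0.07 (SE), with an adjusted p of 2.37e-12 in edgeR's quasi-likelihood test over all genes. The female library lay above both males in 12 of 12 groups, and female and male libraries did not overlap on either diet. Within the kinds of library the difference was 0.97 for low and 1.56 for high mt-Nd6 and passed in both. Car14 was lower in females by a small margin, with a log2 difference of -0.21 ± 0.06 and an adjusted p of 0.0252, and the female lay below both males in 9 of 12 groups. That call was lost on leaving out any one of 4 female libraries: adjusted p was 0.0528 without control CT00 3, 0.0607 without control CT04 3, 0.0593 without control CT16 3 and 0.0507 without MCD CT08 3. It was also lost without both control CT00 1 and 2, at 0.0621, in the exon-bin counts, which lack these 2 libraries, at 0.0632, and within the kinds of library, at 0.195 and 0.514.

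These are 2 of the 6 members, where 10.3% of all liver genes differed by sex, 5.44% higher and 4.83% lower in females. The other 4 members did not pass. Car1 had a log2 difference of -0.56 ± 0.21 (adjusted p = 0.0965), which passed in DESeq2 (0.0368) and without control CT08 a, MCD CT04 1 or MCD CT04 3 (0.0109, 0.0358 and 0.0460). Car3 had -0.38 ± 0.21 (0.298), Car8 0.15 ± 0.12 (0.505) and Car5a 0.01 ± 0.14 (0.982).

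No member's diet difference was shown to depend on sex: 0 of 6 passed in edgeR and in DESeq2, 2 had an unadjusted p under 0.05, and 1.77% of liver genes passed in edgeR. For Car2 the diet difference was 1.49 ± 0.09 in males and 1.04 ± 0.12 in females, and the difference between these, -0.44 ± 0.15, had an adjusted p of 0.138 (unadjusted 0.00536). For Car5a it was -0.60 ± 0.16 in males and -1.20 ± 0.23 in females, and the difference of -0.60 ± 0.28 had an adjusted p of 0.371 (unadjusted 0.0410). The 95% intervals of these differences ran from -0.74 to -0.14 for Car2 and from -1.17 to -0.02 for Car5a.

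**Figure D4:**
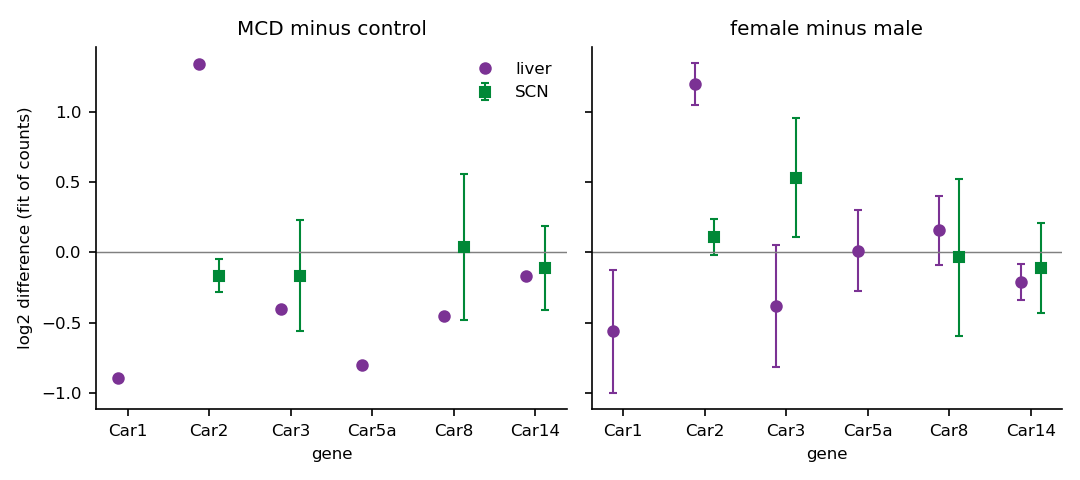
Fitted log2 differences of the members in liver (circles) and SCN (squares), for MCD minus control and for female minus male; bars are 95% intervals and are not drawn for the liver diet values. Car2 in liver stands at 1.34 for diet and 1.20 for sex, and its SCN values are -0.17 and 0.11.

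Genes listed as sex-biased in the liver were read beside Car2. Of 8 genes listed as male-biased, 6 fell on MCD and none rose, and of 8 listed as female-biased, 5 rose and none fell, beside 21.2% of all liver genes lower and 25.3% higher; these counts pool the sexes. All 16 differed by sex in the listed direction. The diet difference itself differed between the sexes in 3 of 8 genes of each list, beside 1.77% of all liver genes, with a median of 1.89 for female minus male in the male-biased list and -3.66 in the female-biased list, beside -0.04 for all genes. Their part in the Car2 difference was not tested. In the female-biased list the median diet difference was 2.81 in males, with 8 of 8 genes above 0, and -0.68 in females, with 6 of 8 below 0. Its summed level had a median of 16.5 CPM in control males (1.27 to 281) and 271 CPM in MCD males (84.9 to 1795), and of 4596 CPM in control females (3687 to 6144) and 2966 CPM in MCD females (1990 to 4768). In the male-biased list the median difference was -2.14 in males, with 8 of 8 genes below 0, and -0.50 in females, with 6 of 8 below 0. Its summed level had a median of 8350 CPM in control males (3693 to 11389) and 2488 CPM in MCD males (798 to 4247). In females that sum was higher on MCD, with a median of 212 CPM on control (156 to 405) and 535 CPM on MCD (363 to 796). The medians over all genes were 0.02 in males and 0.00 in females.

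Time of day was called in 1 member in liver. Car14 followed a 24 h rhythm on the control diet, with a peak-to-trough range of 0.57 on the log2 scale, a peak at CT 21.6 and an adjusted p of 0.00287; 17.8% of liver genes passed this test. At CT12 its 3 control libraries had 29.9, 25.4 and 26.1 CPM, lower than every other control library. At CT16 they had 57.3, 53.3 and 43.7 CPM and at CT20 48.0, 47.5 and 45.1 CPM. The control means were lowest at CT12, with 27.1 CPM, and highest at CT16, with 51.4 CPM. The fitted peak is thus not the time of the highest mean. On MCD the CT12 libraries were at 31.3, 26.8 and 30.6 CPM and the CT16 libraries at 47.2, 38.9 and 35.4 CPM. The 26.8 was the lowest of the 18 MCD libraries, the other CT12 libraries lay within the range of the other times, and the highest MCD library, with 50.0 CPM, was at CT8. The fitted range on MCD was 0.09 with an adjusted p of 0.830, where 28.2% of genes passed.

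The difference between the diets in that rhythm was 0.53, with an unadjusted p of 0.0103 and an adjusted p of 0.108, so it was not shown; 4.87% of liver genes passed. It passed without MCD CT04 1 (0.0451) and in DESeq2 (0.0397). The control rhythm itself did not pass without both control CT08 a and b, with a range of 0.50 and an adjusted p of 0.0564. In the exon-bin counts, which lack control CT00 1 and 2, the range was 0.48 and the adjusted p 0.0532; without these 2 libraries the gene counts gave 0.54 and 0.0286. For Aph1a, whose exons overlap those of Car14 on the opposite strand, the range was 0.21 with a peak at CT 11.3 on control (adjusted p = 0.0994) and 0.25 with a peak at CT 8.80 on MCD (0.0319).

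Car2, Car3, Car5a and Car8 had ranges of 0.15 to 0.56 in liver and passed on neither diet. Car1 had a range of 1.18 on MCD with a peak at CT 20.7 and an adjusted p of 0.0552. It passed without control CT08 a (0.0109), control CT08 b (0.0366), MCD CT00 3 (0.0363) or MCD CT04 3 (0.0380), and in DESeq2 (0.0265). Its difference between diets, 1.39, had an adjusted p of 0.248, and 0.0436 without control CT08 a.

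**Figure D5:**
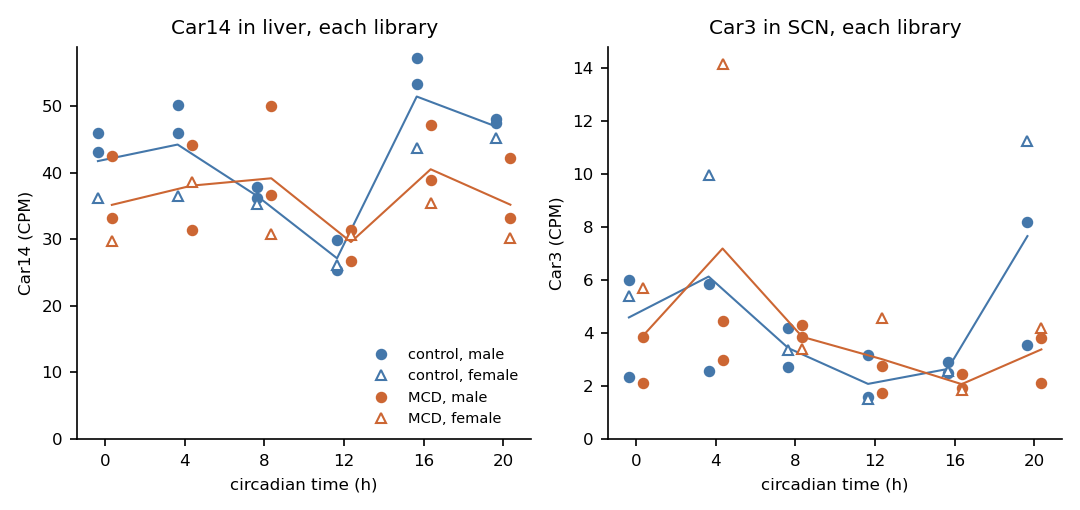
Car14 in liver and Car3 in the SCN (CPM) against circadian time (h), every library; filled circles are males, open triangles females, and lines join means of 3 libraries. Control Car14 is lowest at CT12 and highest at CT16; the 3 highest Car3 points, at 14.2, 11.3 and 9.97 CPM, are 3 of the 4 shallowest SCN libraries.

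In the SCN the diet left no member past the threshold: 0 of 4 passed in edgeR and in DESeq2, and 1, Car2, had an unadjusted p under 0.05. Car2, which in brain marks oligodendrocytes, had 58.6 to 93.4 CPM on control (median 75.7, n = 18) and 53.1 to 94.1 CPM on MCD (median 69.3, n = 18), and the ranges overlapped. Its log2 difference was -0.17 ± 0.06 (SE; 95% interval -0.29 to -0.05), with an unadjusted p of 0.00679 and an adjusted p of 0.614. Car3 had -0.17 (interval -0.56 to 0.23), Car8 0.04 (-0.48 to 0.55) and Car14 -0.11 (-0.41 to 0.19), each with an adjusted p of 1. Without the 3 female libraries with most genes at 0, Car2 had -0.14, Car3 -0.17, Car8 0.17 and Car14 0.038, so that the sign for Car14 rested on them. Over the whole SCN 10 genes, 0.0635% of 15759, were called. Of the 10 oligodendrocyte markers 0 were called, with a median diet difference of -0.18 on the log2 scale beside 0.00 for all genes, and their sum ran from 1445 to 2459 CPM on control and from 1220 to 2505 CPM on MCD. Car2 followed that sum with r = 0.68 over 36 libraries, and the gene nearest in pattern was Bcas1, itself an oligodendrocyte gene, at r = 0.82.

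Car3 was the one SCN member with a called rhythm. On control its range was 1.43 on the log2 scale with a peak at CT 0.0 and an adjusted p of 0.0317, where 15.1% of SCN genes passed. On MCD the range was 1.28 with a peak at CT 3.77 (adjusted p = 0.0581, where 16.1% passed). The difference between diets had an adjusted p of 1, and 0.0127% of genes passed that test. Control libraries had 8.19, 3.56 and 11.3 CPM at CT20 and 1.57, 3.17 and 1.52 CPM at CT12. The libraries of these 2 times did not overlap, whereas those at CT00, from 2.36 to 6.00 CPM, and at CT04, from 2.59 to 9.97 CPM, overlapped the range at CT12. Car2, Car8 and Car14 had ranges of 0.20 to 0.48 in the SCN and passed on neither diet.

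The highest SCN Car3 values lay in libraries of low depth with high sums of muscle genes. The 3 libraries highest in Car3, MCD CT04 3, control CT20 3 and control CT04 3 with 14.2, 11.3 and 9.97 CPM, were 3 of the 4 shallowest; the other, control CT00 2, had 6.00 CPM of Car3 and a muscle sum of 29.4 CPM. Their own sums over the 3 skeletal muscle markers in the table, of 6 listed, were 64.0, 54.6 and 50.7 CPM; control CT20 1, the next in Car3 with 8.19 CPM, had the highest muscle sum at 70.1 CPM. The muscle sum ran from 6.43 to 70.1 CPM on control (median 15.4) and from 4.18 to 64.0 CPM on MCD (median 14.3), and Car3 followed it with r = 0.69 over 36 libraries and 0.58 without MCD CT04 3 and control CT20 3. Mb, the muscle oxygen store myoglobin, had a control range of 2.01 with a peak at CT 22.3 (adjusted p = 0.0321), a call lost on leaving out any one of 6 control libraries, CT00 2, CT08 a, CT08 3, CT12 1, CT12 3 or CT20 1, with adjusted p up to 0.112. The other 2 muscle markers did not pass: Ckm had a range of 1.65 with a peak at CT 22.3 (0.332) and Tnnt3 0.44 with a peak at CT 12.7 (0.858). The part of muscle RNA in the Car3 rhythm was not tested. Without those 3 libraries the Car3 control range was 1.27 with a peak at CT 23.8 and still passed (0.0385), and the MCD range was 0.79 (0.269).

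The call on the control rhythm was lost without any one of 8 of the 18 control libraries. These were control CT00 2 (adjusted p = 0.149), CT04 2 (0.0503), CT08 a (0.0502), CT08 3 (0.0550), CT12 1 (0.0948), CT12 3 (0.127), CT16 3 (0.0545) and CT20 1 (0.0536), with ranges from 1.15 to 1.41. It was also lost without both control CT08 a and b (0.0550, range 1.59). In the exon-bin counts its adjusted p was 0.0558. On MCD it passed without control CT04 1 (0.0455), control CT12 2 (0.0487), control CT20 2 (0.0497), MCD CT00 2 (0.0438) or MCD CT04 1 (0.0258), and in DESeq2 (0.0288).

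Sex differences in the SCN passed in 0 of the 4 members in edgeR and in DESeq2, with 1, Car3, at an unadjusted p under 0.05; 9.7% of genes passed in edgeR. Car3 had a log2 difference of 0.53 ± 0.21 (SE; unadjusted p = 0.0151, adjusted p = 0.0964); it passed without MCD CT16 3 (0.0422), and without the 3 female libraries with most genes at 0 it was 0.17 (0.697). Over all genes, the count that differed by sex in the SCN went from 1528 to 127 without these 3 libraries. Car2 had 0.11 ± 0.06 in the SCN (adjusted p = 0.286), beside 1.20 in liver; the difference between the tissues was not tested. Car8 had -0.04 and Car14 -0.11, and 0.14 and -0.27 without these 3 libraries. No SCN gene passed the sex-by-diet test in edgeR, with 826 at an unadjusted p under 0.05 and 1 in DESeq2.

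Car8 in the SCN was listed at 0 in library MCD CT04 3, beside 3.02 to 7.54 CPM in the other 17 MCD libraries, while the exon bins of the gene held 14 counts there. With that library included its nearest patterns were Atg4a, 9030025P20Rik and Dok5, each at r = 0.95 over 36 libraries. Without it they were Zfp455, Itih3 and BB218582, at 0.62, 0.59 and 0.58. Car3 was nearest Gsn, Eno3 and Lpl (0.77, 0.77 and 0.75); without MCD CT04 3 and control CT20 3 it was nearest Lrrc51, S100a11 and Gm5619 (0.76, 0.74 and 0.72 over 34 libraries). Car14 was nearest Nsmce3 at 0.66.

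Genes that work with these enzymes were taken from fixed lists. Of 8 bicarbonate-using enzymes listed, 7 were in the liver table and tested, and 7 fell on MCD, beside 21.2% of all liver genes, with a median log2 difference of -0.70 beside 0.02 for all genes. Acacb and Acaca, the acetyl-CoA carboxylases, went from 369 ± 169 to 126 ± 71.7 CPM and from 485 ± 233 to 206 ± 56.6 CPM (SD, n = 18 each), log2 differences of -1.54 ± 0.20 and -1.14 ± 0.12 (SE). Cps1, which makes carbamoyl phosphate from bicarbonate in the mitochondrion, differed by -0.54 ± 0.10. All 7 were lower with library totals alone too.

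Among 16 tested liver genes for bicarbonate, proton and lactate transport, 4 rose and 1 fell on MCD, 5 of 16 beside 46.6% of all liver genes called. Slc16a7, a monocarboxylate transporter, rose from 77.3 ± 39.2 to 132 ± 44.0 CPM, a log2 difference of 0.87 ± 0.10, and Slc4a4, a sodium bicarbonate cotransporter, from 81.1 ± 28.1 to 116 ± 46.5 CPM, a difference of 0.49 ± 0.09. Aqp8, a water channel, fell from 214 ± 117 to 68.0 ± 21.6 CPM, a difference of -1.47 ± 0.13. With library totals alone 11 rose and 1 fell, and among the libraries of low mt-Nd6 alone Slc4a4 did not pass, at 0.32. Of the 16, 5 were higher in females and none lower, beside 5.44% and 4.83% of all liver genes, Slc16a7 by 0.85 ± 0.09 and Slc4a4 by 0.44 ± 0.09. In the SCN 1 of 15 was called: Slc16a1, another monocarboxylate transporter, fell from 30.0 ± 3.98 to 25.3 ± 3.48 CPM, -0.25 ± 0.05 (adjusted p = 0.0237). That call was lost without control CT00 2, control CT12 3 or MCD CT00 2 (0.0573, 0.0586 and 0.0578), or without both control CT08 a and b (0.0783).

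Of the other carbonic anhydrases, 10 were listed, 7 were in the liver table and 6 were tested there. Car7, a cytosolic form, was lower on MCD, at 1.27 ± 0.365 against 0.793 ± 0.214 CPM, with a log2 difference of -0.69 ± 0.13. Car13, another cytosolic form, was higher, at 0.468 ± 0.241 against 0.739 ± 0.399 CPM and 0.67 ± 0.20. Car7 did not pass among the high mt-Nd6 libraries alone, and Car13 not among the low ones. Car5b, the other mitochondrial form, had a rhythm on both diets, with ranges of 1.23 and 1.03, peaks at CT 2.4 and CT 2.6 and adjusted p of 0.000325 and 0.000958. In the SCN 6 of the 10 were tested; Car10 and Car11, related proteins without catalytic activity, had 28.9 ± 5.19 and 23.7 ± 4.03 on control and 30.1 ± 5.48 and 23.8 ± 4.51 on MCD. Car11 had a rhythm on MCD, with a range of 0.54 and a peak at CT 21.8 (adjusted p = 0.0169), and a range of 0.33 on control that did not pass (0.208); the difference between diets had an adjusted p of 1. Car5b, Car10, Car11 and Car13 were named after their values were seen.

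Marker genes of other cell types were read beside these values. All counts here stand beside the 25.3% of liver genes higher and 21.2% lower on MCD. Of 6 red cell genes tested, 4 fell in liver on MCD, all of them globins, Hbb-bs by 0.94 ± 0.14 and Hbb-bt by 0.97 ± 0.17 on the log2 scale. The list's sum ran from 130 to 453 CPM on control and from 93.7 to 273 CPM on MCD, and neither of the defining genes Epb42 and Ahsp was in the liver table. Over the 36 libraries Car1 followed that sum with r = 0.56 and Car2 with r = -0.79. With the astrocyte, oligodendrocyte, choroid plexus and SCN lists summed in these liver libraries, Car1 had 0.77, 0.64, 0.63 and 0.01. Car2 had -0.53, -0.73, -0.44 and 0.20 with the same lists. With the cholangiocyte, pericentral and periportal sums Car1 had -0.07, 0.45 and 0.28, and Car2 0.19, 0.01 and -0.33. The part of red cell RNA in either gene was not tested. The cholangiocyte sum ran from 27.6 to 45.8 CPM on control and from 26.1 to 44.6 on MCD, with 2 of 8 genes higher. None of 6 adipocyte markers was in the liver table, and of 6 skeletal muscle markers 1 was, at 0.106 to 0.889 CPM. Of 5 general hepatocyte markers tested 3 fell and none rose, and with library totals alone 2 fell and 2 rose. Of 8 pericentral and 8 periportal hepatocyte markers 1 rose and 2 fell, and 1 rose and 4 fell, on MCD; with library totals alone these were 4 and 2, and 2 and 1.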

How the data were processed

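Gene counts were the unit analysed: the deposited tables hold whole-number counts per gene, not normalized, for 36 liver and 36 SCN libraries, and exon-bin counts are deposited per library (liver: 34 of 36 complete). Stranded poly(A) libraries were made, per the labels' protocols. Trimmomatic, HISAT2, StringTie, DESeq2 and the GRCm39 build are named in the submitters' processing notes, with no role or version; the sources used here do not give the counting tool or its strand setting. Gene lengths, neighbours and promoters came from GRCm38.p6 annotation.

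Per tissue, edgeR 4.0.16 (R 4.3.3, limma 3.58.1) fitted 12 groups of diet and time plus sex by quasi-likelihood, with TMM scaling and a minimum count of 10, leaving 23 residual degrees of freedom; a second fit added sex by diet. A rhythm value is the log2 peak-to-trough range of the fitted 24 h component. P-values were Benjamini-Hochberg adjusted over 20249 liver or 15759 SCN genes, with a threshold of 0.05; fits were tested on simulated data. CPM are counts per M (mega) counts of the TMM-scaled library total. For mt-Nd6 and for exon bins the total was not scaled. DESeq2 1.42.0 was an alternative. Intervals are 95%.

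Named were all members, the called genes of each list with the largest diet difference (mean of at least 1 CPM, up to 2 each way), the 3 genes nearest each member in pattern and mt-Nd6; Aph1a, BC048644, Mb, Car5b, Car10, Car11 and Car13 were named after their values were seen. Members and lists were chosen with earlier results of these data known.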

Additional observations from a re-analysis of the deposited data

Results flagged for a closer look

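Among the 20 sets of 6 female libraries examined, 3 held a library whose gap to its nearest neighbour was large beside the range of the set; chance gives about 1 in 20. Car3 in the SCN had 14.2 CPM in MCD CT04 3, against 1.84 to 5.73 CPM in the other female MCD libraries. Car2 in liver had 43.2 CPM in the library also labelled MCD CT04 3, against 28.0 to 33.4 CPM. Car5a in liver had 73.7 CPM in control CT00 3, against 88.9 to 95.8 CPM in the other female control libraries.

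Car1 and Car5a are not in the SCN gene table, yet their exon bins held SCN reads. Car1 bins had more than 3 counts in 29 of 36 libraries (median 16.5), up to 77 in control CT08 1; in CPM of the bin counts the highest was MCD CT04 3 with 3.02, 1 of the 3 SCN libraries with most genes at 0. Car5a bins had more than 3 counts in 14 of 36 libraries (median 2), up to 41 in MCD CT04 2. Counts of 3 or fewer are not told apart from 0 here, and these limits cover counting error only.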

How the results depend on the processing

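Under other settings, 139 of 180 counts and 278 of 313 single-gene values kept their size or call; leaving out 1 library at a time, 805 of 864 and 1258 of 1296 did. With library totals alone the diet differences of Car14 and Aph1a in liver turned to 0.082 and 0.032, and 1 member had a rhythm on MCD (0 as reported). Alternatives within the mt-Nd6 kinds and without the 3 SCN libraries with most genes at 0, control CT08 a and b, or control CT00 1 and 2 were chosen after seeing the data. Taken alone, low and high mt-Nd6 libraries gave 4583 and 5096 genes by diet (9426), 199 and 108 by sex (2081), 3 members by diet in the low kind (5), and 1 member by sex in each (2). Exon-bin counts, which in liver lack control CT00 1 and 2, gave 2046 genes (3611) and 0 members (1) with a control rhythm in liver, 358 genes with a rhythm difference (986), 1 member by sex (2), and in the SCN 0 members (1) with a control rhythm and 1 gene with a rhythm difference (2). Without these 2 libraries the gene counts gave 2356 genes with a control rhythm, 539 with a rhythm difference and 1 member by sex. DESeq2 gave in liver 1 member with an MCD rhythm (0), 2061 genes (986) and 1 member (0) with a rhythm difference and 733 genes by sex and diet (359); in the SCN it gave 47 genes by diet (10), 1 member with an MCD rhythm (0), 7 genes with a rhythm difference (2) and 1 by sex and diet (0). Without the 3 SCN libraries 6 genes differed by diet, 1 in rhythm between diets and 127 by sex (1528).

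Replicate numbers showed no common pairing of the male libraries. Between groups, the differences of male 1 minus male 2 had a median correlation of -0.007 in liver (-0.43 to 0.33). In the SCN it was 0.022 (-0.12 to 0.19), over 55 pairs of groups in each tissue. Female libraries were not examined, and a median cannot show whether single groups were paired. The fit with the replicate block also lacks control CT08 a and b, whose columns share a name that does not tell which replicate each is. In liver it gave 0 members with a control rhythm (Car14: 0.50, adjusted p = 0.0665), 1 with an MCD rhythm (Car1, 0.0145) and 651 genes with a rhythm difference; leaving out these 2 libraries with no block gave 0 (Car14: 0.0564), 1 (Car1, 0.0116) and 798. In the SCN the block fit gave 4 genes by diet, 1248 with a control rhythm (2378), 0 members (Car3: 1.60, adjusted p = 0.0522) and 1 gene with a rhythm difference; with no block these were 4, 1149, 0 (Car3: 0.0550) and 1. Slc16a1 passed in neither (0.0873 and 0.0783). The block could not be fitted for sex.

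Leaving out 1 library at a time, the ranges were, in liver, 0 to 1 members with an MCD rhythm, 634 to 1243 genes and 0 to 1 members with a rhythm difference, 1 to 3 members by sex and 229 to 497 genes by sex and diet. In the SCN they were 7 to 17 genes by diet, 0 to 1 members with a control rhythm and 0 to 1 with an MCD rhythm, 1 to 5 genes with a rhythm difference, and 712 to 2636 genes and 0 to 1 members by sex. Where a value moved, the cause was not tested.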
